A study of Mus musculus with 22 samples.

Results

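The boundaries described here are edges of lamina-associated domains (LADs) that were found again at nearly the same place in independent wild-type (WT) cultures of mouse embryonic fibroblasts (MEFs). They were chosen by measured values, namely the positions of LAD starts and ends in the 3 WT lists. A start or end in the WT list of embryo x17, on chromosomes 1 to 19, was kept when a boundary of the same type lay within 25 kb in the lists of both other WT embryos, 1.5 and 1.8. Of 4032 boundaries of the 2016 LADs in the x17 list, 1296 met this rule, 659 starts and 637 ends. The whole series holds 45764 boundaries in 11 lists.

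LADs are long stretches of chromatin, mostly poor in active genes, that lie against the nuclear lamina, the mesh of A-type and B-type lamins under the inner nuclear membrane. Their edges separate compacted chromatin from the more active chromatin beside it. Histone methylation and deacetylation are known to take part in holding LADs at the lamina, and A-type lamins are among its tethering proteins. DamID records this contact: lamin B1 carrying a bacterial adenine methylase (Dam) marks DNA at the lamina in living cells, and Dam on its own serves as the control for accessible DNA.

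The series used primary C57bl/6 MEFs from e13.5 embryos, cultured for a few passages. WT cells were untreated and received no control hairpin (embryos 1.5, 1.8 and x17). In shAC cells a hairpin virus against lamin A/C was followed by puromycin selection, by the Dam viruses 4 days after infection and by harvest 48 h later (embryos 1.5 and x17). BIX01294 inhibits G9a, a writer of repressive histone H3 methylation, DZNep depletes methylation set by EZH2 among others, and TSA inhibits histone deacetylases. The drugs were given for 18 to 24 h before the Dam viruses (each in embryos 1.8 and x17), and harvest was at 60 h, counted from a step that the labels leave unstated. Doses are not given there either. Each of the 11 lists came from a pair of Dam-lamin B1 and Dam-only libraries. The lists hold starts and ends with no score or read number, so the depth behind each call is unknown. Precision comes from the lists themselves, 3 for WT and 2 for each treatment. They hold no expression values, so the cell type and the loss of lamin A/C could not be checked. Cultures that share an embryo name were taken to come from the same animal. The viral infection and selection of shAC cells and the untreated state of WT cells cannot be told apart from the loss of lamin A/C.

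Neighbouring intervals less than 25 kb from each other were merged and only those longer than 100 kb were used, after which the lists held 1849 to 2239 LADs. LADs covered 1438 ± 65.6 Mb in WT (SD, n = 3), 1385 ± 65.3 Mb in shAC, 1508 ± 39.0 Mb with BIX01294, 1448 ± 12.3 Mb with DZNep and 1329 ± 38.0 Mb with TSA (SD, n = 2 each). These totals moved with the direction of boundary movement described below, and their part in it was not tested.

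The reproducible boundaries sat at longer LADs and faced wider gaps than the rest of the same list. The median length of the LAD was 416.9 kb for the 1296 reproducible boundaries, 344.2 kb for the 1297 matched in 1 other WT list and 269.2 kb for the 1439 matched in none. The median adjoining gap, the stretch to the next LAD, was 249.3 kb, 180.2 kb and 137.1 kb in the same order. Among boundaries of LADs from 100 to 250 kb, 24.6% were reproducible, and among those of LADs of 1000 kb or more, 40.9% were. By gap, the share was 23.9% at gaps from 25 to 100 kb and 39.1% at gaps of 1000 kb or more. By chromosome the share ran from 23.0% of 174 boundaries on chromosome 15 to 41.8% of 206 boundaries on chromosome 7.

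The choice of members fixed how far they could lie apart in WT, and within that limit most lay much closer. The larger of the distances to the other WT lists had a median of 8.90 kb, and 716 boundaries (55.2%) lay within 10 kb in both lists. At 16 boundaries all 3 WT lists gave the identical base. Both edges were reproducible at 259 LADs, 12.8% of the LADs in the x17 list, and 1037 LADs had at least 1 such edge. Of the 1296 members, 30 had no LAD beyond them, being the first start or the last end on their chromosome.

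The closest values on either side of the 25 kb limit were nearly alike. Just inside it were the ends at chr13:67598253 and chr13:101411298, with larger WT distances of 24.98 kb and 24.95 kb. Just outside it were the end at chr6:86288396 and the start at chr10:28125509, at 25.03 kb and 25.16 kb. Those inside were found in 4 and 6 of the 8 treated lists, and those outside in 4 and 3.

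Most of the reproducible boundaries were found again within 25 kb under every treatment, fewest of them with TSA. Within 10 kb the TSA lists held 47.07% and 49.85% of them, and the other 6 treated lists 54.94% to 64.89%. A boundary was called retained in a treated list when a boundary of the same type lay within 25 kb. The retained share was 80.9% (embryo 1.5) and 72.7% (embryo x17) in the shAC lists. It was 81.5% in both BIX01294 lists (embryos 1.8 and x17). DZNep gave 84.0% and 84.7%, the highest values, and TSA gave 67.0% and 69.1%, the lowest. Both TSA lists lay below the other 6 treated lists and both DZNep lists lay above, and the shAC lists were farther apart than the lists of any drug.

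The remaining boundaries were sorted by where the LAD edge had gone. An extended boundary lay inside a LAD that reached outward by more than 25 kb, and a joined boundary lay inside a LAD that ran across the gap to the neighbouring WT LAD. A receded boundary had moved inward by more than 25 kb within a LAD still present, and an absent boundary had no LAD left over the WT domain. With BIX01294, outward fates took 13.7% (embryo 1.8) and 16.3% (embryo x17) of the boundaries and inward fates 4.86% and 2.24%. With TSA the inward fates were larger, 19.8% and 24.7%, against 13.1% and 6.25% outward. DZNep lists held 8.95% and 9.26% outward and 7.02% and 6.10% inward. The shAC list of embryo 1.5 was nearly balanced, with 10.1% outward and 9.03% inward, whereas that of embryo x17 had 6.40% outward and 20.9% inward.

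**Figure D1:**
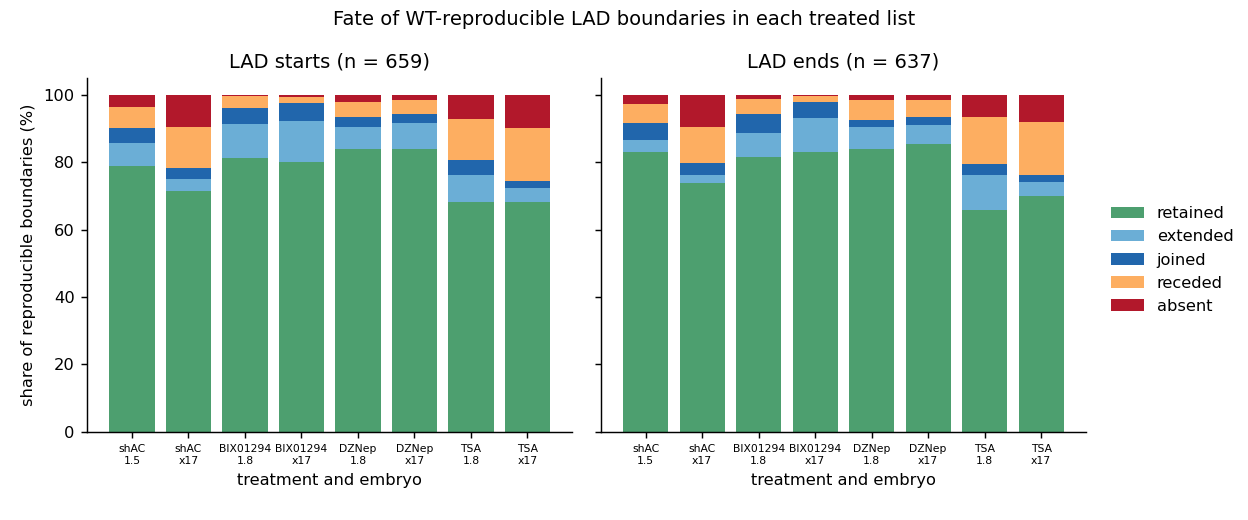
Stacked bars give the share (%) of reproducible LAD starts (left) and ends (right) that were retained, extended, joined, receded or absent in each of the 8 treated lists, labelled by treatment and embryo. Receded and absent boundaries take the most room in both TSA lists and in the shAC list of embryo x17, and extended and joined starts in both BIX01294 lists. Among ends, extended and joined boundaries take 14.9% in BIX01294 of embryo x17, 13.8% in TSA of embryo 1.8 and 12.6% in BIX01294 of embryo 1.8.

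The distance moved was also measured. Among extended boundaries the median distance ran from 39.1 kb to 48.7 kb over the 8 lists. Among receded boundaries it ran from 45.8 kb to 51.5 kb in the BIX01294 and DZNep lists and from 54.0 kb to 80.2 kb in the shAC and TSA lists, with the highest value in TSA of embryo 1.8. Absent boundaries numbered 9 and 7 of 1296 with BIX01294 (0.694% and 0.540%), 89 and 117 with TSA (6.87% and 9.03%) and 41 and 123 in shAC cells (3.16% and 9.49%). Among all 2016 LADs of the x17 list, the whole LAD was absent at 7.69% and 2.98% with BIX01294. That share was 16.2% and 18.4% with TSA and 8.98% and 16.1% in shAC.

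Between treatments, the retained share with TSA was 68.1% ± 1.42 (SD, n = 2) against 80.9% ± 4.29 in the other 6 treated lists (SD, n = 6), a difference of -12.8 points. Of the 28 ways to take 2 of the 8 treated lists, no other reached this size (exact permutation test, two-sided, p = 0.0357, the smallest these 28 can give; adjusted over the 4 treatments, p = 0.143). For a treatment that alone reaches this p, the adjusted value cannot be smaller, so 0.05 could not be passed. DZNep lay 8.90 points above the other treatments (84.3% ± 0.436; exact permutation p = 0.143, adjusted 0.286). BIX01294 lay 5.09 points above (exact permutation p = 0.393, adjusted 0.524), a value that was 1.77 without the WT list of embryo 1.8 and 3.23 without TSA of embryo 1.8. The shAC difference was -1.18 points (exact permutation p = 0.857, adjusted 0.857), and it was 2.91 without shAC of embryo x17 and -5.27 without shAC of embryo 1.5. Leaving out any of the 11 lists moved it over 1.5 times or turned its sign, between -5.43 (without WT of embryo x17) and 2.91.

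The net outward share, the outward minus the inward percentage, was highest with BIX01294, at 8.80 and 14.04 points. It was 1.93 and 3.16 points with DZNep, 1.08 and -14.5 points in shAC (embryos 1.5 and x17) and -6.71 and -18.4 points with TSA. Both BIX01294 lists lay above the other 6 lists, by 17 points on average (exact permutation p = 0.0714, adjusted 0.214). TSA differed from the others by -15.0 points (exact permutation p = 0.107, adjusted 0.214), and it overlapped the shAC list of embryo x17. The TSA difference was -9.13 points without TSA of embryo x17. DZNep and shAC differed from the others by 5.17 and -7.18 points (exact permutation p = 0.643 and 0.5, both adjusted to 0.643), and the shAC difference was 0.617 without shAC of embryo x17, -15.0 without shAC of embryo 1.5, -4.46 without BIX01294 of embryo x17 and -11.0 without TSA of embryo x17. The DZNep difference was 2.01 without TSA of embryo x17, 2.79 without shAC of embryo x17 and 8.50 without BIX01294 of embryo x17. The levels depended on the processing and on the WT lists: the mean net outward share with BIX01294, 11.4 points, was 4.74 without joining, 19.9 with joining under 50 kb, 8.09 with no minimum length, 3.56 with the lists as deposited (neither step) and 17.9 without the WT list of embryo 1.8. The DZNep mean, 2.55 points, was 0.636 without joining, 0.0248 with no minimum length and -2.24 with the lists as deposited. Without a WT list it was 0.294 (embryo 1.5) or 6.60 (embryo 1.8). The 3 lists with the smallest LAD totals, TSA of embryo x17 (1302 Mb), shAC of embryo x17 (1339 Mb) and TSA of embryo 1.8 (1356 Mb), were also the 3 with the lowest net outward share.

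The signed shifts of retained boundaries were small and depended on the WT list they were measured from. The mean signed shift, outward positive, was 0.783 kb and 1.31 kb with BIX01294 and 0.473 kb and 0.281 kb with DZNep. It was -1.41 kb and -2.14 kb with TSA, and -0.777 kb and -2.23 kb in shAC, where the list of embryo 1.5 had a slightly positive net outward share. The median signed shift lay between -1.09 kb and 0.350 kb. The median distance regardless of sign was 3.20 kb to 4.44 kb in the shAC, BIX01294 and DZNep lists and 4.77 kb and 5.21 kb in the TSA lists. Boundaries within 1 kb made up 12.3% of all 1296 in each TSA list and 16.4% to 21.8% in the other 6 lists. The WT list of embryo 1.5 itself lay -2.16 kb from that of x17 on average, and that of embryo 1.8 lay 0.727 kb from it. With members taken from the WT list of embryo 1.5, the treatment means were 0.0558 kb for shAC, 2.41 kb for BIX01294, 1.93 kb for DZNep and -0.665 kb for TSA, against -1.50, 1.05, 0.377 and -1.77 kb from x17. From embryo 1.8 the DZNep mean was -0.101 kb and the BIX01294 mean 0.535 kb. Against the other treatments, with x17 as the base, the mean shift differed by 2.01 kb for BIX01294 (exact permutation p = 0.0714, adjusted 0.286), -1.75 kb for TSA (p = 0.179, adjusted 0.357), -1.39 kb for shAC (p = 0.286, adjusted 0.381) and 1.12 kb for DZNep (p = 0.393, adjusted 0.393), all by the exact permutation test. The shAC value was -0.660 without shAC of embryo x17, -2.11 without shAC of embryo 1.5 and -0.735 without WT of embryo x17, and the DZNep value was 0.733 without WT of embryo x17. The size of these differences also depended on the matching distance. With treated boundaries within 10 kb and within 100 kb, BIX01294 differed by 0.673 kb and 5.74 kb, and TSA by -0.587 kb and -4.08 kb.

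**Figure D2:**
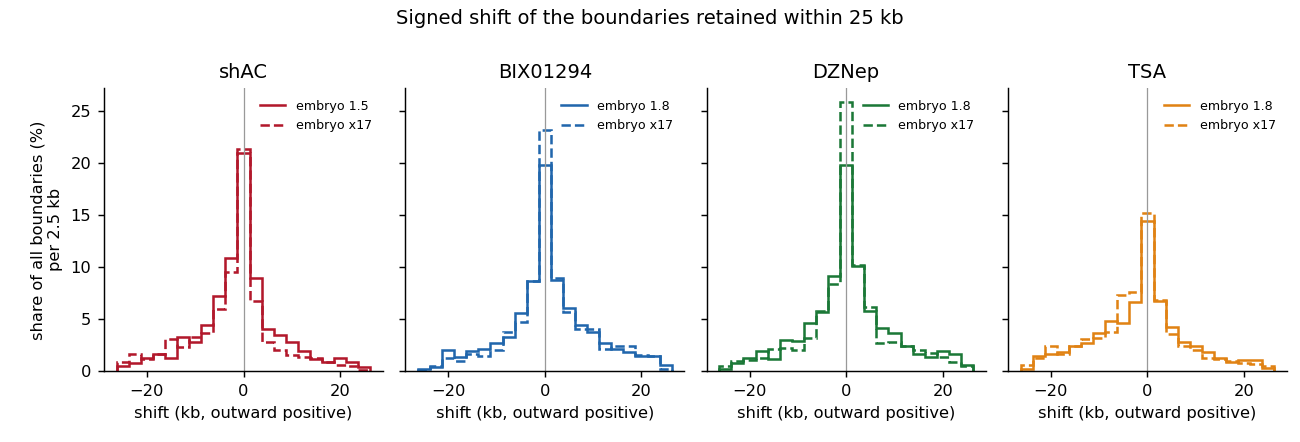
Each panel gives the share of the 1296 boundaries (%) per 2.5 kb of signed shift, outward positive, for boundaries retained within 25 kb, with 1 line per embryo. All 8 lines peak at 0, the TSA lines are lowest at the peak, and inward shifts make up 51.8% and 56.7% of the retained boundaries with TSA against 41.9% and 39.7% with BIX01294.

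Starts and ends were compared without a test. The retained share of starts minus that of ends ran from -3.98 points (shAC of embryo 1.5) to 2.51 points (TSA of embryo 1.8) over the 8 lists. Among starts, TSA retained 68.3% in both lists, 11.7 points fewer than the other treatments (difference -11.7, exact permutation p = 0.0357, adjusted 0.143). Among ends TSA retained 65.8% and 69.9%, a difference of -14.0 points with the same p values. The net outward difference of BIX01294 was 18.4 points for starts and 15.5 points for ends (exact permutation p = 0.0714, adjusted 0.214, in each case). The mean shift of retained starts with BIX01294, 1.10 kb ± 0.2998 (SD, n = 2), lay above all 6 other treated lists by 2.41 kb (exact permutation p = 0.0357, adjusted 0.143). At ends the difference was 1.61 kb (exact permutation p = 0.179, adjusted 0.321), and the groups overlapped. Against WT lists left out of the choice of boundaries (described below), BIX01294 starts differed by 1.39 kb (exact permutation p = 0.2, adjusted 0.6). The start shift in WT of embryo 1.8, 1.588 kb, lay above both BIX01294 lists, at 1.182 kb and 1.583 kb. In DZNep the mean shift measured from x17 was -0.166 kb ± 0.130 for starts and 0.935 kb ± 0.416 for ends, of opposite sign relative to the LAD. This split depended on the base list. For boundaries shared by a pair of WT lists, averaged over all ordered pairs, DZNep starts shifted by 0.558 kb ± 0.0522 and ends by 0.607 kb ± 0.253.

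The same boundaries could be followed across both lists of a treatment, and the share of all 4032 boundaries of the x17 list with the same outcome gives the background. In shAC cells 826 members (63.7%) were retained in both lists against 37.4% of all boundaries, 43 (3.32%) moved outward in both against 9.45%, and 73 (5.63%) moved inward in both against 14.2%. With BIX01294, 903 members (69.7%) were retained in both lists against 37.6%, 69 (5.32%) moved outward in both against 19.1%, and 5 (0.386%) moved inward in both against 5.78%. With DZNep, 950 members (73.3%) were retained in both against 41.8%, 27 (2.08%) moved outward in both against 12.5%, and 23 (1.77%) inward in both against 9.42%. With TSA, 710 members (54.8%) were retained in both against 30.2%, 27 (2.08%) moved outward in both against 8.09%, and 176 (13.6%) moved inward in both against 26.8%. The background includes the members themselves, and the members were chosen for recurring in WT lists, so nothing is read from their higher retained share. Opposite movement in the lists of the same treatment was seen at 10 (DZNep, 0.772%) to 39 (TSA, 3.01%) members. Its share over all 4032 boundaries was not computed, so nothing is read from it.

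The number of WT matches is the value that chose the members, so the following is a description only. Boundaries matched in no other WT list were retained at 19.7% to 37.0% over the 8 treated lists, those matched in 1 at 43.1% to 64.0% and the reproducible boundaries at 67.0% to 84.7%.

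Across all treatments, 370 members (28.5%) were retained in all 8 treated lists, against 443 of all 4032 boundaries of the list (11%), and 306 in 7 and 251 in 6. At the other end, 17 members were retained in 1 list and 5 in none. Shares over all boundaries were computed only for retention in all 8 lists. The median LAD of the 370 was 597.6 kb and their median gap 306.6 kb. Starts and ends were evenly placed among them, with 188 starts and 182 ends.

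The longest LADs kept more of their reproducible boundaries than the shortest, though not in even steps. With TSA the retained share was 60.6% ± 1.82 at LADs of 100 to 250 kb, 68.4% ± 1.09 at 250 to 500 kb, 67.3% ± 0 at 500 to 1000 kb and 77.7% ± 2.49 at 1000 kb or more (SD, n = 2 lists each). In shAC it was 68.9% ± 13.3 at the shortest class, where the lists of embryos 1.5 and x17 were far apart, and 83.2% ± 1.59 at the longest. BIX01294 and DZNep went from 80.0% ± 1.28 to 83.3% ± 0.453 and from 81.1% ± 2.01 to 84.9% ± 0.906 respectively, and DZNep was highest at 500 to 1000 kb (88.1% ± 0.780). The longest class exceeded the shortest in 8 of 8 lists, by 2.08 to 24.8 points. Between treatments this rise was compared after the values were seen, and no difference passed the test: 10.02 points for TSA (exact permutation p = 0.107, adjusted 0.429), -8.45 for BIX01294 (p = 0.214, adjusted 0.429), -7.69 for DZNep (p = 0.357, adjusted 0.476) and 6.11 for shAC (p = 0.571, adjusted 0.571). Absent boundaries were most frequent at the shortest LADs. LADs had to exceed 100 kb in the treated lists too, so a LAD of this class that shortens somewhat counts as absent. Absent boundaries made up 21.5% ± 3.83 of the class from 100 to 250 kb with TSA, 19.2% ± 12.6 in shAC, 5.15% ± 1.46 with DZNep and 1.93% ± 0.547 with BIX01294, and 4.63% ± 1.75 of the class from 250 to 500 kb with TSA. There were none at LADs of 1000 kb or more in any list. With TSA the edges of the longest LADs still receded, at 15.4% ± 0.453, against 3.21% ± 3.17 with BIX01294 and 5.13% ± 1.81 with DZNep.

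For ends the longest class exceeded the shortest in 8 of 8 lists, and for starts in 7 of 8, the exception being BIX01294 of embryo x17 (80.3% at the shortest and 79.9% at the longest). With TSA, starts rose from 60.9% ± 1.79 in the shortest LAD class to 81.4% ± 0.445 in the longest, and ends from 60.3% ± 5.58 to 73.9% ± 4.62 (SD, n = 2). The mean shift of retained boundaries at the longest LADs under TSA, measured from x17 alone, was -3.54 kb ± 0.622 for starts and -0.699 kb ± 0.486 for ends. Over all LAD lengths and all ordered pairs of WT lists, the TSA shift was -1.48 kb ± 0.979 for starts and -1.35 kb ± 0.719 for ends. In BIX01294 the retained shift was most outward at the shortest LADs, 1.77 kb ± 0.2986 for starts and 1.66 kb ± 0.183 for ends.

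Taken over starts and ends, boundaries facing a narrow gap were retained less than those facing a wide gap. At gaps of 25 to 100 kb the retained share was 59.5% ± 2.06 with TSA, 71.9% ± 2.27 in shAC, 72.9% ± 2.06 with BIX01294 and 81.6% ± 0.412 with DZNep. At gaps of 1000 kb or more it was 75.0% ± 1.65, 79.7% ± 8.26, 86.7% ± 0.330 and 87.1% ± 2.31 in the same order. The widest class exceeded the narrowest by 3.57 to 15.8 points over the 8 lists. It did so in 8 of 8 lists for ends and in 7 of 8 for starts, the exception being shAC of embryo x17, with 70.2% at the narrowest and 69.5% at the widest gaps. Between treatments this rise differed by 6.48 points for TSA (exact permutation p = 0.179, adjusted 0.357), -6.86 for DZNep (p = 0.107, adjusted 0.357), 4.18 for BIX01294 (p = 0.321, adjusted 0.429) and -3.81 for shAC (p = 0.464, adjusted 0.464). Joining took the larger part of the outward fates at narrow gaps, 18.4% ± 1.65 with BIX01294, 14.1% ± 3.92 in shAC, 10.2% ± 4.12 with TSA and 9.04% ± 0 with DZNep. At gaps of 100 to 250 kb joining fell to 1.20% ± 1.22 with BIX01294. LADs under 25 kb apart were joined in each list, so narrow gaps lie near the limit of that step. At the narrowest gaps an outward move of over 25 kb mostly counts as joined by definition. The split between joined and extended by gap is therefore partly set by the rules.

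LAD length and gap were also combined. With TSA of embryos 1.8 and x17, boundaries at LADs under 500 kb facing gaps under 250 kb were retained at 57.6% and 61.6%, and those at LADs of 500 kb or more facing gaps of 250 kb or more at 76.0% and 79.1%. In the shAC list of embryo x17 the inward share was 26.9% and 33.6% at LADs under 500 kb, at narrow and wide gaps, and 8.42% and 12.2% at longer LADs. The low retention in that list lay mostly with the shorter LADs, whereas TSA lists had inward shares of 14.3% to 33.2% in all 4 combinations.

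**Figure D3:**
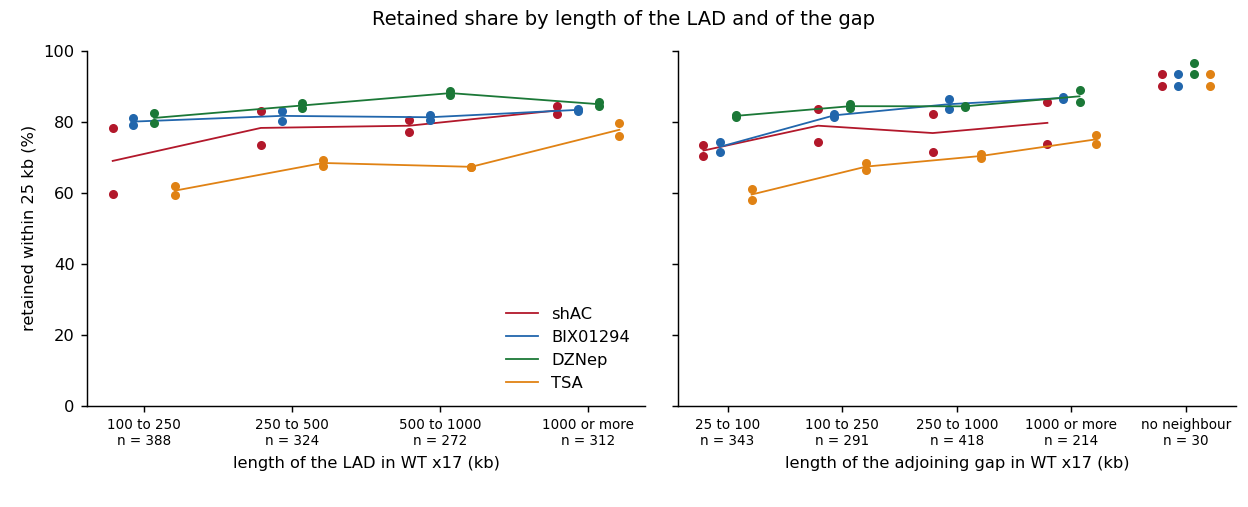
Points give the retained share (%) in each of the 8 treated lists by length class of the LAD (left) and of the adjoining gap (right), and lines join the treatment means. The TSA mean is lowest in every class except the boundaries with no neighbouring LAD, with the shAC point of embryo x17 below a TSA point at the shortest LADs and at the widest gaps, and the shAC points of embryos 1.5 and x17 are widest apart at the shortest LADs.

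The 30 boundaries with no neighbouring LAD were retained at 90.0% to 96.7% in the 8 lists, and 43.3% to 66.7% of them were at the identical base. Without them, TSA differed from the other treatments by -13.1 points in retained share and BIX01294 by 17.2 points in net outward share. By chromosome the mean retained share with TSA ran from 53.1% of 80 boundaries on chromosome 3 to 77.2% of 46 on chromosome 14. With DZNep it ran from 79.4% on chromosome 3 to 91.0% of 72 on chromosome 13.

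At the 259 LADs with both edges reproducible, both edges were retained in 73.4% and 61.0% of LADs in shAC (embryos 1.5 and x17), 71.8% and 66.0% with BIX01294, 73.4% and 73.0% with DZNep and 52.9% and 53.7% with TSA (embryos 1.8 and x17). The whole LAD was absent at 5 and 27 of the 259 in shAC, at 1 in each BIX01294 list, at 6 and 5 with DZNep and at 15 and 22 with TSA, with the embryos in the same order. Over all 2016 LADs of the x17 list, both edges were retained in 33.7% and 33.9% in shAC, 29.3% and 32.5% with BIX01294, 31.8% and 39.6% with DZNep and 22.5% and 26.5% with TSA. The whole LAD was absent at 181 and 324 of them in shAC (8.98% and 16.1%), 155 and 60 with BIX01294 (7.69% and 2.98%), 173 and 112 with DZNep (8.58% and 5.56%) and 327 and 370 with TSA (16.2% and 18.4%).

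WT lists retain all members by the way these were chosen, so WT served as a comparison only where it was held out. For this, boundaries of a WT list matched within 25 kb in a second WT list were measured in the third WT list and in the treated lists, over all 6 ordered pairs. The held-out WT lists retained 63.4% (embryo 1.5), 69.9% (embryo 1.8) and 65.6% (embryo x17) of such boundaries, 66.3% ± 3.30 (SD, n = 3). DZNep retained 75.2% and 75.4%, above all 3 WT lists, and TSA 59.1% and 59.6%, below all 3. BIX01294 retained 71.9% and 71.1%, also above the WT lists, and shAC 70.5% and 62.7%, on either side of them. These sets are not alike: a treated list is averaged over all WT pairs, including those that hold the WT list of its own embryo, and a WT list only over boundaries from the other embryos. On the boundaries from the other embryos alone, DZNep retained 74.1% and 71.9%, TSA 60.4% and 57.2%, BIX01294 70.6% and 68.3%, and shAC 69.5% and 56.3%. DZNep then still lay above and TSA below all 3 WT lists, and BIX01294 of embryo x17 and shAC of embryo 1.5 lay below WT of embryo 1.8. With 3 lists against 2 there are 10 arrangements, and no p below 0.1 can be reached. DZNep differed from WT by 9.05 points and TSA by -6.98 points (two-sided exact permutation, p = 0.1 and adjusted 0.2 for each), BIX01294 by 5.22 points (p = 0.2, adjusted 0.267) and shAC by 0.297 points (p = 1, adjusted 1), all by the exact permutation test. The shAC value was -3.63 without shAC of embryo 1.5 and 4.23 without shAC of embryo x17.

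In the net outward share the WT lists were themselves far apart, at -10.3 (embryo 1.5), 17.8 (embryo 1.8) and 1.399 points (embryo x17). TSA, at -10.5 and -20.9 points, had a mean difference of -18.7 points (exact permutation p = 0.1, adjusted 0.4). On boundaries from the other embryos alone, TSA was at -6.20 points in embryo 1.8, above WT of embryo 1.5, and at -19.8 points in embryo x17, so the groups overlapped. BIX01294, at 10.4 and 18.0 points, differed by 11.3 points (exact permutation p = 0.3, adjusted 0.533) and by 7.46 points without BIX01294 of embryo x17. The shAC lists, at 0.362 and -14.7 points, differed by -10.1 points (exact permutation p = 0.4, adjusted 0.533), a value of -2.60 without shAC of embryo x17 and -17.7 without shAC of embryo 1.5. DZNep, at 2.36 and 3.96 points, differed by 0.195 points (exact permutation p = 1, adjusted 1).

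Each treated list could also be set beside the WT list of its own embryo, both measured on boundaries chosen from the other WT embryos. TSA retained fewer than WT in each embryo, by -9.47 points (embryo 1.8) and -8.37 points (embryo x17). DZNep retained more, by 4.22 and 6.31 points, and BIX01294 by 0.758 and 2.70 points. In shAC the signs differed, 6.12 points in embryo 1.5 and -9.28 points in embryo x17. The net outward share with TSA lay -24.0 and -21.2 points from that of WT in the same embryo. With these pairs as blocks, the mean difference in retained share was -8.92 points for TSA, 5.26 for DZNep, 1.73 for BIX01294 and -1.58 for shAC. The net outward share differed by -22.6 points for TSA, 6.72 for BIX01294, -4.35 for shAC and -4.20 for DZNep. With 2 pairs no p below 0.5 can be reached.

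**Figure D4:**
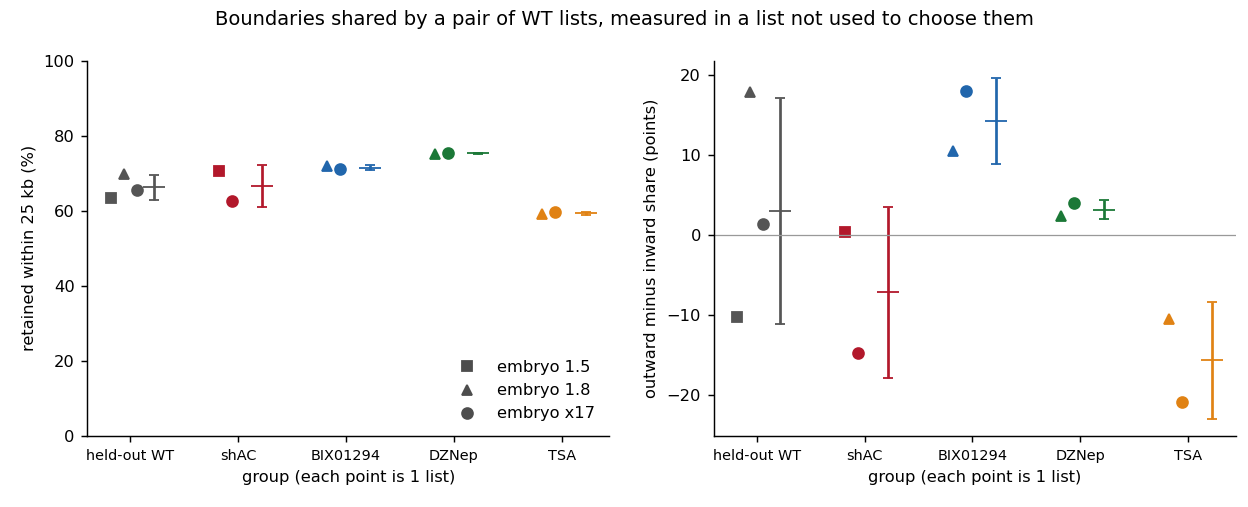
Each point is 1 list, with its symbol giving the embryo, and bars give the mean and SD of a group. The left axis is the share (%) of boundaries common to a pair of WT lists that was retained in a list not used to choose them, and the right axis is the outward minus inward share in points. In the left panel DZNep lies above and TSA below the 3 WT points, and in the right panel the WT points span most of the range of the treated lists.

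The length pattern was present without treatment as well. Held-out WT lists retained 61.1% ± 5.18 of boundaries at LADs of 100 to 250 kb and 71.9% ± 2.91 at LADs of 1000 kb or more (SD, n = 3). TSA retained 51.6% ± 0.525 and 68.4% ± 1.59 in these classes, averaged over all WT pairs, and DZNep 72.5% ± 1.87 and 77.9% ± 0.0910 (SD, n = 2). At gaps of 25 to 100 kb the WT lists retained 58.9% ± 2.78 and at gaps of 1000 kb or more 70.6% ± 3.99.

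Single boundaries show what these classes look like in each list. The steadiest of the 1296 were at chromosome ends in the lists. The start at chr3:3000793 (LAD to 5134971) and the end at chr14:125180150 lay at the same base in all 11 lists, and the end at chr15:103494897 within 0.074 kb. None of these had a neighbouring LAD. Of the members that had one, the 3 steadiest were chosen after the values were seen. The end at chr18:9705290 (LAD chr18:9452702-9705290) stayed within 2.21 kb in all other lists, the end at chr13:21248989 (LAD chr13:20393015-21248989) within 2.40 kb and the start at chr13:22146351 (LAD chr13:22146351-23385233) within 2.42 kb. Positions are in mm9 and count from 1. No annotation of that build was used, so no gene is named for them.

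The boundary extended farthest in both shAC lists was the start at chr10:50630749, the left edge of a LAD of 1438 kb. It reached outward by 198.8 kb in embryo 1.5 and 182.6 kb in embryo x17. It was also extended with BIX01294, by 42.4 kb and 76.2 kb, and was retained in all 4 DZNep and TSA lists. The boundary that receded farthest in shAC was the end at chr1:128689760, with shifts of -140.5 kb and -143.5 kb in those lists. It also receded in TSA of embryo 1.8 (-71.7 kb), BIX01294 of embryo x17 (-29.0 kb) and DZNep of embryo 1.8 (-29.6 kb).

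With BIX01294 the start at chr6:142479061 extended by 160.4 kb and 150.0 kb, and also by 121.7 kb in shAC of embryo 1.5 and 119.5 kb in DZNep of embryo x17. The boundary that receded farthest with BIX01294, the start at chr2:151826169, shifted by -112.7 kb and -118.1 kb, but it was retained in only 1 treated list, DZNep of embryo x17. With DZNep the end at chr5:108138696 extended by 135.0 kb and 152.7 kb and was retained in both TSA lists. The start at chr3:123094017 shifted by -118.7 kb and -119.2 kb with DZNep and by -126.2 kb to -129.4 kb in 5 other treated lists, the exception being BIX01294 of embryo x17 at -7.27 kb.

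With TSA the end at chr3:154700265, the right edge of a LAD of 2244 kb, receded to -391.1 kb (embryo 1.8) and -392.0 kb (embryo x17). It receded to -398.8 kb in BIX01294 of embryo 1.8 and was retained in 4 lists. The start at chr2:5372464 extended by 212.6 kb and 133.4 kb with TSA and by 201.3 kb and 126.4 kb with DZNep, and was retained in all 4 shAC and BIX01294 lists. These boundaries were picked as extremes of each treatment and carry no test, and all 8 had moved over 25 kb in at least 1 list of another treatment as well.

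**Figure D5:**
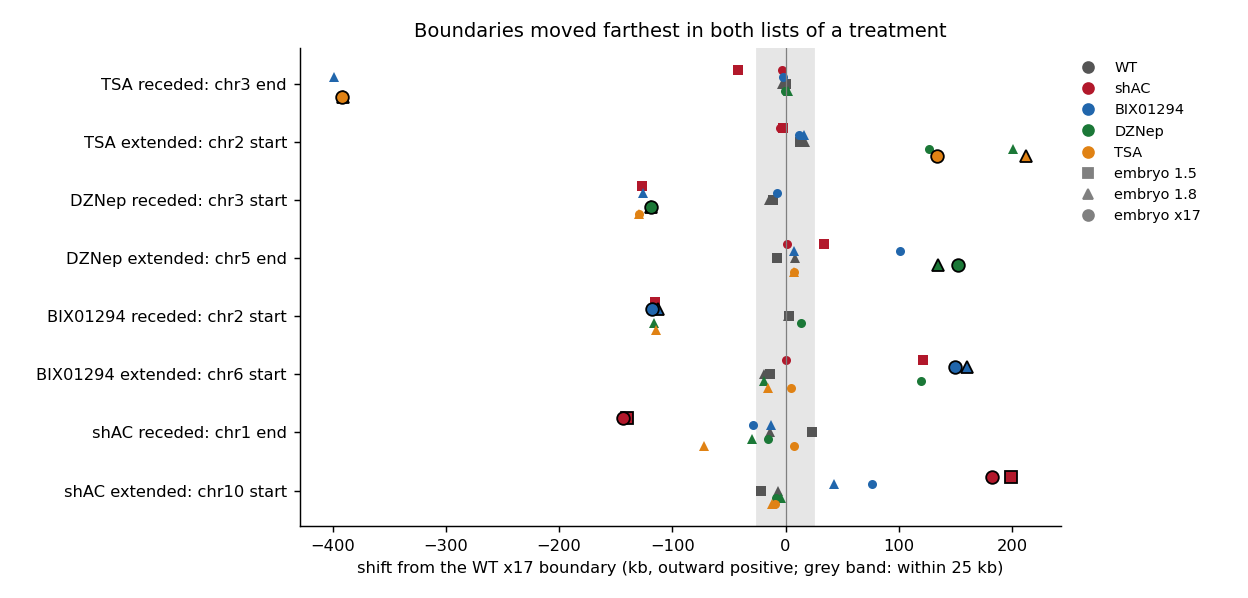
Each row is a boundary that extended or receded farthest in both lists of the treatment named, and each point is its shift (kb, outward positive) in 1 list, coloured by treatment and shaped by embryo. Outlined points are the lists of the named treatment, WT points lie inside the grey band of 25 kb by the way members were chosen, and points of other treatments lie outside the band in every row.

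Of the 5 members retained in no treated list, those at the longest LADs faced each other across a single gap, the end at chr7:102683469 and the start at chr7:102708928. This gap of 25.5 kb is just wider than the distance at which LADs were joined. It was bridged in 7 of the 8 treated lists, in which both boundaries were joined, and in TSA of embryo 1.8 both receded instead, to -43.0 kb and -180.5 kb.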

How the data were processed

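DamID libraries of primary MEFs were grouped by the sample labels into 11 pairs of Dam-lamin B1 and Dam-only. Per the labels and methods, the authors made 1 list per pair by segmenting the ratio of the libraries with LADetector (genome build mm9 in the submitters' processing notes; the aligner is not given in the sources used here). The deposited lists hold LAD starts and ends as positions, with no score. Starts were converted to count from 1. In each list alone, intervals closer than 25 kb were merged and those of over 100 kb retained. The depth is unknown, so no interval from counting error was given.

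Members, length classes and tests were chosen with earlier results of these data known. Each treatment was compared with the other treatments over 28 arrangements of lists, and with held-out WT over 10, by two-sided exact permutation of the difference in means, adjusted with Benjamini-Hochberg over 4 treatments for each measure. Same-numbered lists were paired where they carry the same embryo name. Replicate number 1 covers embryos 1.5 and 1.8 and number 2 is embryo x17. The permutation p-values set a difference against lists rearranged across treatments, or across WT and a treatment. They do not measure the spread between cultures of the same treatment. Outside the blocks, the embryo of a list was not taken into account. Named boundaries were the 3 with the smallest largest distance over the other 10 lists; per treatment, those extended and receded in both lists with the largest smaller shift; the 2 at the longest LADs retained in no treated list; and those beside the 25 kb limit. Alternatives were other distances, joins and length limits, other WT lists as the base, mutual matching, median WT positions, starts or ends alone, blocks and leaving out each list. Python 3.11.15, numpy 2.4.6 and matplotlib 3.10.9 were used, and the code was tested on simulated data. Signal tracks were not used here.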

Additional observations from a re-analysis of the deposited data

Results flagged for a closer look

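Measured against the WT list of the same embryo, the lists of a treatment moved in opposite directions in 5 cases. The difference between the embryos was not tested. In shAC the retained share differed from WT by 6.12 points in embryo 1.5 and by -9.28 points in embryo x17. The net outward share in shAC differed by 7.10 points in embryo 1.5 and by -15.8 points in embryo x17, and the mean shift of retained boundaries by 1.01 kb and -1.85 kb. With BIX01294 the net outward share differed by -2.49 points in embryo 1.8 and by 15.9 points in embryo x17. With DZNep it differed by -10.2 points in embryo 1.8 and by 1.83 points in embryo x17. The WT lists behind these differences had net outward shares of -10.3 (embryo 1.5), 17.8 (embryo 1.8) and 1.399 points (embryo x17).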

How the results depend on the processing

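Of 484 recomputed values of 20 differences, 26 changed sign, all in 4 differences that were small or split between lists, and 80 others moved over 1.5 times. The cause was not tested. With these numbers of lists no adjusted p could fall below 0.05 in any of them, so nothing is read from that. The TSA and BIX01294 differences kept their sign throughout: TSA minus other treatments ranged from -18.0 to -7.72 points retained and from -20.9 to -9.13 points net outward, BIX01294 from 9.80 to 24.2 points net outward. The retained share of shAC minus other treatments was 1.003 with treated boundaries within 10 kb, 0.482 with joining under 50 kb, 1.76 with no minimum length, 2.40 with the lists as deposited and 0.157 for ends, and ranged from -5.43 to 2.91 when 1 list was left out. Its net outward share ranged from -15.0 to 0.617 when 1 list was left out. The retained share of shAC minus held-out WT was -1.01 within 50 kb, -1.68 within 100 kb, -0.302 without joining, -0.936 with LADs over 200 kb, -0.797 for starts and -1.58 with same-embryo pairs as the replicate block, and ranged from -3.63 to 4.23 when 1 list was left out. The net outward share of DZNep minus held-out WT was -0.260 within 50 kb, -0.972 within 100 kb, -0.0648 and -0.0883 with WT matches within 10 kb and 50 kb, -1.40 without joining, -1.25 with LADs over 200 kb, -0.434 for ends and -4.20 with the replicate block, and ranged from -0.608 to 0.999 when 1 list was left out. Levels moved too: the net outward share of BIX01294 was 3.56 to 19.9 points and that of DZNep -2.24 to 9.22 points over the joining and length choices, and the mean shift of shAC was 0.0558 kb with members from WT embryo 1.5. The replicate block within numbers leaves differences between treatments as they are, -12.8 points retained for TSA (exact permutation p = 0.0625, the smallest it can give; adjusted 0.25). Mutual matching changed nothing, since same-type boundaries lie over 100 kb apart by construction. Leaving out the chromosome-terminal members was chosen after seeing the data. Held-out values need all 3 WT lists, so none exists without a WT list. Precision is limited by 2 lists per treatment and by unknown depth.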
